A study of Mus musculus with 8 samples.

Results

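The genes described here are imprinted genes of the mouse: Peg3, Usp29, Zim1, Snrpn, Ndn, Magel2, Mkrn3, Peg12, Ube3a, Igf2r, Airn, Slc22a3, Mest, Copg2, Nnat, Gnas, Plagl1, Grb10, Impact, Zdbf2, Zrsr1, Peg13, Trappc9, Kcnk9, Mcts2, H13, Rasgrf1, Inpp5f, Nap1l5, Qpct, Dhcr7 and Ddc. They were chosen by name from a list of imprinted genes, and 30 of the 32 were matched to a gene among the 19429 genes of the expression table. The levels of Slc22a3 and Peg13 were not analysed here. The 30 genes lie on 10 chromosomes and comprise 29 protein-coding genes and Airn, a noncoding antisense RNA.

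The RNA came from LF2 cells, a mouse embryonic stem cell line, grown in LIF medium with 10% fetal bovine serum, in which TET1, an enzyme that oxidises 5-methylcytosine, carried a FLAG tag at its C-terminus. WT lines 2 and 5 kept the native TET1 sequence, and D2018A lines 7 and 8 carried the aspartate-to-alanine change of that name in both Tet1 copies. Each of the 4 lines gave 2 libraries, so that the labels describe 8 libraries, 4 per genotype. The lines are derivatives of 1 parental line, the study describes a deletion in its WT cells, and the study's methods describe the libraries of a line as technical replicates. The level used below is the authors' mean normalised count, pooled over the libraries of their fit and over both genotypes. A comparison of D2018A with WT was not analysed here.

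At an imprinted gene, the copy inherited from the father and the copy inherited from the mother are used unequally. The choice is set by DNA methylation laid down in the sperm or the egg at an imprinting control region. This methylation is normally kept in the somatic cells of the embryo and often read by a whole cluster of genes at the same place. Many paternally expressed genes promote growth of the embryo, several maternally expressed ones restrain it, and some genes are imprinted only in brain or placenta. TET1 acts on the same base, 5-methylcytosine, and the zinc finger protein ZFP57 keeps many imprints by binding a short motif when it is methylated. Reads were not assigned to parental copies, so the allele named for each gene below is background knowledge and not a measurement.

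The DNA in front of a few of these genes is shown because neighbouring or motif-bearing starts recur in the results below. Peg3 and Usp29 are transcribed away from each other, and only 146 bases separate their spans, at chr7:6730432-6730577 of GRCm38.p6. The stretch is written on the minus strand, in the direction of Peg3, as RefSeq gives it, with its 5 CpG sites, the bases that can be methylated, in capitals.
Peg3 to Usp29: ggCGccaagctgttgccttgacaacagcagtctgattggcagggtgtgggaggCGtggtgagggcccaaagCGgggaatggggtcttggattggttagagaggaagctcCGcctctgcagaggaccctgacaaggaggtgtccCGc
The next 3 stretches come from RefSeq promoter windows of GRCm38.p6, cut back to bases outside all annotated exons, and are written on the plus strand, in the direction of each gene. Capitals mark TGCCGC, the core of the motif bound by ZFP57, or its reverse complement GCGGCA. They are the stretch before the upstream start of Zdbf2 at chr1:63200108-63200312, with 3 matches and 12 CpG sites, the stretch before Mcts2 at chr2:152686898-152687034, with 1 match and 12 CpG sites, and the stretch before the start of Mest at chr6:30737803-30738049, with 2 matches and 14 CpG sites.
Zdbf2: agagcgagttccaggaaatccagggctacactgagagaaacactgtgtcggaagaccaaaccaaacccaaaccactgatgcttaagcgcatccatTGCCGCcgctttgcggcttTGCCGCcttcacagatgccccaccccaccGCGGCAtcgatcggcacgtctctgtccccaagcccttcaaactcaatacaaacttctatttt
Mcts2: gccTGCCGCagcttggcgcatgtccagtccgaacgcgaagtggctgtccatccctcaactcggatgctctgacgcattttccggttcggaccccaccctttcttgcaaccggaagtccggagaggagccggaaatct
Mest: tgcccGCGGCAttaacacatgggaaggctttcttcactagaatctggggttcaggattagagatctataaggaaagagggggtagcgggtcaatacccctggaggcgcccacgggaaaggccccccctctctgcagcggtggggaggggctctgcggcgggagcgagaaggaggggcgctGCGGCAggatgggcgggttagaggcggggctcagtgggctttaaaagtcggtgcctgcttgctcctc
The level measured for Mest was the highest of the 30 genes per kilobase, that of Mcts2 was the third with this length and lower with others given below, and the level of Peg3 was far above that of Usp29 across the stretch they share.

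The following quantities describe each gene below. The mean normalised count is the authors' value, in which the read count of each library was first scaled by a size factor for its depth. The level per kilobase is that mean divided by the summed length of all annotated exons of the gene, and only this level was used to set genes beside each other. Dividing by the longest transcript or by the median transcript length instead moved a gene's rank by up to 4 and 12 places. It turned 0 and 7 of the 20 pairs of genes compared below, each of which is named where it occurs. A gene with 1 read in 1 library takes a value set by that library alone, and 12 such values recurred among the smallest means, each in 38 to 123 genes. The mean thus covers 12 libraries, 4 more than the labels describe, with size factors from 0.726 to 1.47. Which genotype the additional libraries came from was not analysed here. Values of single libraries were not analysed here, so no standard deviation or n accompanies a level, no difference was tested, and the 95% intervals given are exact Poisson intervals for counting error only.

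Most of the imprinted genes were transcribed at a moderate level in these cells. A mean of at least 10 normalised counts was reached by 26 of the 30 genes, beside 66.3% of all genes of the table. A mean of 100 was reached by 18 and a mean of 1000 by 5. The share of all genes at these higher minimums was not analysed here. Per kilobase, 20 of the 30 lay above the median of all genes, which was 17.1. The median of the 30 was 54.2 per kilobase, and their median percentile among all genes was 66.9. Together they made up 0.145% of the summed means.

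The levels spanned a wide range, from Mest, an alpha/beta hydrolase family gene, at 645 per kilobase, to Kcnk9, a potassium channel gene, at 0.00648 per kilobase. Mest, Gnas (251 per kilobase), Mcts2 (237) and Snrpn (220) formed the top of the order, and none of these 4 overlapped its neighbour within counting error. Mest and Gnas were also at the top with the other lengths. Mcts2 and Snrpn, however, were at ranks 4 and 5 with the longest transcript, below Dhcr7, and at ranks 13 and 14 with the median transcript. Of the 29 neighbouring pairs in the order, 8 had overlapping counting intervals. These were Dhcr7 and Impact, Impact and Zdbf2, Trappc9 and Igf2r, Peg12 and Inpp5f, Usp29 and Airn, Airn and Zim1, Rasgrf1 and Nap1l5, and Nap1l5 and Kcnk9. At the bottom, the mean of Kcnk9 equalled exactly 1 read in 1 library and that of Nap1l5 exactly 3 reads, all in 1 library, so that without it Nap1l5 had no read.

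**Figure D1:**
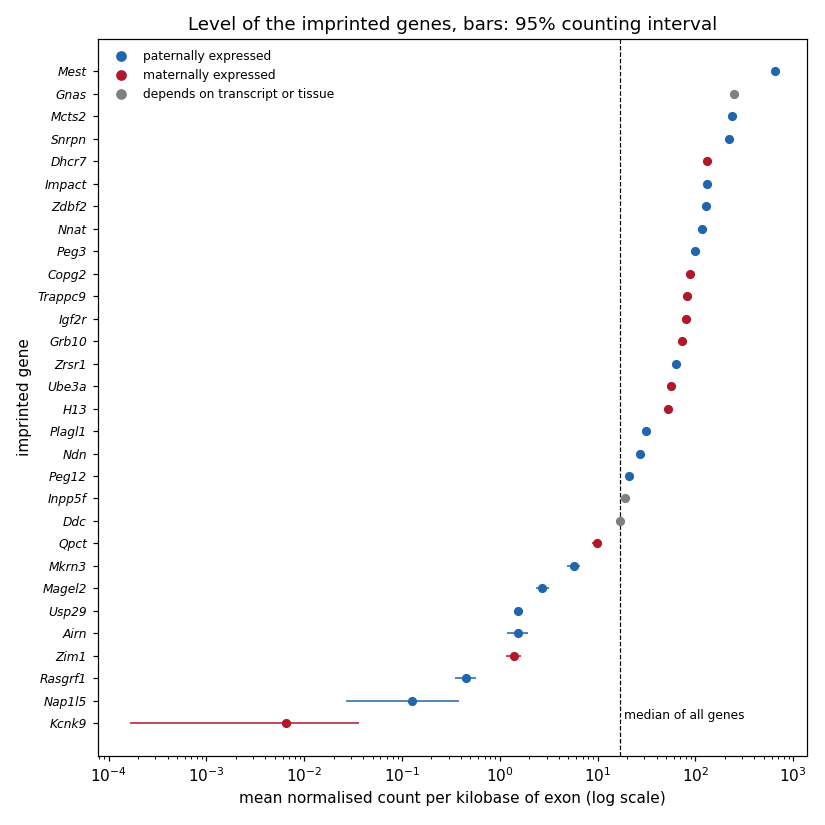
Level of each of the 30 imprinted genes, as the authors' mean normalised count per kilobase of exon on a log axis, with bars for the 95% counting interval and colours for the parental allele each gene is known to express. The genes run from 645 for Mest to 0.00648 for Kcnk9, and the dashed line marks the median of all genes, 17.1.

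The 30 genes fell into 19 groups when neighbours within 1 Mb were joined, 11 with 1 gene and 8 with more, and the genes of a group often differed widely. In the Peg3 group on chromosome 7, Peg3, a paternally expressed zinc finger gene at 7:6703892-6730431, had a mean of 1327 (95% counting interval 1307 to 1348), or 99.6 per kilobase. Usp29, a paternally expressed gene of the ubiquitin protease family at 7:6730578-6967219, had a mean of 27.8 (25.0 to 30.9), or 1.54 per kilobase. Zim1, a maternally expressed zinc finger gene at 7:6671269-6696450, had a mean of 11.2 (9.36 to 13.2), or 1.38 per kilobase. Peg3 was therefore 64.8-fold above Usp29, which starts beside it and is read from the same parental copy, and 72.2-fold above Zim1 per kilobase. The counting intervals of these ratios were 58.2 to 72.2 and 61.2 to 86.1. The ratio to Usp29 was 41.4 with the longest transcript and 30.9 with the median transcript as length. Of the exon bases of Usp29, 14.3% lie opposite exons of Zim3, an antisense gene with a mean of 15.3.

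In the Prader-Willi and Angelman region of chromosome 7, Snrpn and Ube3a stood above 4 intronless genes further along. Snrpn, which encodes a spliceosome-associated protein and is paternally expressed, had a mean of 476 (464 to 488) at 7:59982495-60140219, or 220 per kilobase. Ube3a, a ubiquitin ligase gene whose maternal copy is the active copy in neurons, had a mean of 1166 (1147 to 1185) at 7:59228750-59311536, or 56.5 per kilobase. Per kilobase Snrpn was thus 3.90-fold above Ube3a, while the mean without length had the opposite order. With the longest transcript of each gene as its length, the ratio was 1.94, and with the median transcript the order turned, with Ube3a 6.38-fold above Snrpn. Of the exon bases of Ube3a, 8.74% lie opposite exons of Snhg14, 9.82% opposite Gm44560 and 8.71% opposite 9330162G02Rik. The strand setting of the counting is not given in the sources used here, so reads from these bases cannot be assigned with certainty.

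The intronless genes of the same region lie 2.21 Mb from Snrpn, at 7:62346569-62464510. All 4 are paternally expressed in tissues where they are active. Ndn, a MAGE family gene, had a mean of 99.8 (94.3 to 105), and Peg12, a FRAT family gene, had a mean of 55.5 (51.4 to 59.7). Mkrn3, a makorin ring finger gene, had a mean of 14.5 (12.4 to 16.7), and Magel2, also of the MAGE family, had a mean of 12.6 (10.8 to 14.8). Per kilobase these genes ran from 27.0 for Ndn through 21.0 for Peg12 and 5.67 for Mkrn3 to 2.73 for Magel2, a 9.91-fold range within 118 kb. Ndn and Peg12 lay above the median of all genes and Mkrn3 and Magel2 below it. For genes low in a bulk sample, fewer cells that express the gene and less RNA per cell cannot be told apart.

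At the Igf2r group on chromosome 17, the protein-coding gene lay above the median of all genes and its antisense RNA below it. Igf2r, which clears insulin-like growth factor 2 and is maternally expressed outside neurons, had a mean of 750 (735 to 765) at 17:12682406-12769664, or 80.6 per kilobase. Airn, the paternally expressed RNA that starts inside Igf2r on the other strand, had a mean of 5.45 (4.23 to 6.91) at 17:12741311-12860122, or 1.52 per kilobase of exon. Igf2r was 53.1-fold above Airn (41.9 to 68.5), 21.3-fold with the longest transcripts as lengths, and 118-fold with the median ones. The exons of these genes share no base. Airn is known as a largely unspliced RNA, and only its 3597 bases of annotated exon counted towards its length.

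At the Mest group on chromosome 6, both genes were well covered. Mest, paternally expressed, had a mean of 2543 (2515 to 2571) at 6:30723547-30748465. Copg2, a coatomer subunit gene that is maternally expressed in brain, had a mean of 448 (436 to 459) at 6:30747554-30896794, or 87.4 per kilobase, so Mest was 7.38-fold higher (7.17 to 7.59). The ends of these genes meet on opposite strands and share 912 exon bases, which are 23.1% of the exon bases of Mest and 17.8% of those of Copg2. The library kit is strand-specific, but the strand setting of the counting is not given in the sources used here, so reads from the shared bases cannot be assigned to either gene with certainty.

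On chromosome 2 the list held 4 genes in 3 places. Mcts2, a paternally expressed retrocopy of the X-linked gene Mcts1, sits in an intron of H13 at 2:152687035-152687951 and had a mean of 217 (208 to 225), or 237 per kilobase. Its host H13, which encodes a signal peptide peptidase and makes its full-length transcripts from the maternal copy, had a mean of 461 (450 to 474) at 2:152669461-152708670, or 51.9 per kilobase. The retrocopy was therefore 4.57-fold above its host per kilobase (4.37 to 4.79) and 2.68-fold above it with the longest transcript as length. With the median transcript the order turned, and H13 was 1.37-fold above Mcts2. The genes share no exon bases.

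Nnat, the neuronatin gene, lies inside an intron of Blcap, and Gnas spans several promoters. Nnat, paternally expressed, had a mean of 214 (206 to 222) at 2:157560078-157562522, or 117 per kilobase, and its host Blcap had a level of 225, 1.92-fold higher (1.84 to 2.00), or 6.01-fold with median transcript lengths. Gnas, the gene of the stimulatory G protein alpha subunit, makes transcripts that are paternal, maternal or from both copies depending on promoter and tissue. It had a mean of 2802 (2773 to 2832) at 2:174284320-174346744, or 251 per kilobase. Its antisense partner Nespas had a mean of 281, and Gnas was 2.80-fold above it per kilobase (2.70 to 2.90), or 5.68-fold with the longest and 7.37-fold with the median transcripts. Of the exon bases of Gnas, 8.83% lie opposite exons of Nespas.

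On chromosome 11, Grb10 and Ddc are neighbours and Zrsr1 lies apart. Grb10, an adaptor that dampens insulin receptor signalling and is maternally expressed in most tissues, had a mean of 656 (642 to 671) at 11:11930508-12038683, or 72.2 per kilobase. Ddc, the aromatic L-amino acid decarboxylase gene, of which a heart transcript is imprinted, had a mean of 74.8 (70.1 to 79.7) at 11:11814101-11898144, or 16.8 per kilobase. Grb10 was 4.31-fold above Ddc (4.03 to 4.62), and 8.23-fold with median transcript lengths. Zrsr1, a paternally expressed retrocopy of the X-linked splicing gene Zrsr2, had a mean of 285 (275 to 294) at 11:22973215-22976496, or 63.3 per kilobase. It lies within Commd1, which was at 11.2 per kilobase on the other strand, so the retrocopy was 5.66-fold above its host (5.25 to 6.11). With median transcript lengths the order turned, and Commd1 was 1.19-fold higher. Zrsr1 shares 412 exon bases with Commd1, 9.17% of its own. The span of Zrsr1 given above differs from that of the annotation, whose 4492 exon bases set its length and this overlap. Its median transcript length, 3282 bases, gave 86.7 per kilobase.

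The widest gap within a group was between Trappc9 and Kcnk9 on chromosome 15, both maternally expressed in brain. Trappc9, a subunit gene of a vesicle trafficking complex, had a mean of 654 (640 to 668) at 15:72589621-73061204, or 82.4 per kilobase. Kcnk9, at 15:72512119-72546279, had a mean of 0.0797 (0.00203 to 0.447). The ratio per kilobase was 12713, with a counting interval from 2268 to 499412, since it rests on 1 read of Kcnk9. It was 22279 with the longest and 32268 with the median transcripts.

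**Figure D2:**
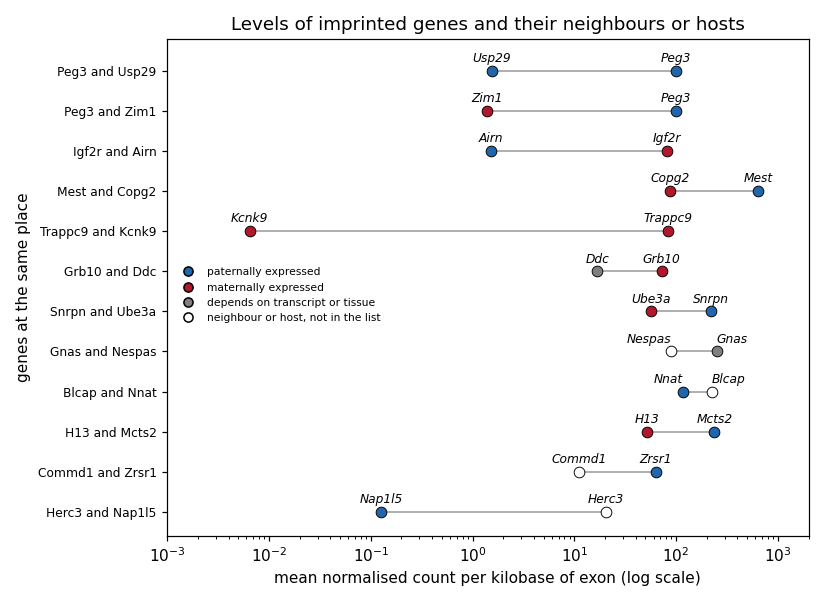
Levels per kilobase of exon, on a log axis, of imprinted genes and of the gene at the same place, joined by a line, with colours for the allele and white for genes outside the list. The lines are long for Peg3 with Usp29 (64.8-fold), Igf2r with Airn (53.1-fold) and Trappc9 with Kcnk9, and short for Nnat with its host Blcap (1.92-fold).

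The remaining genes had no other listed gene within 1 Mb. Zdbf2, a paternally expressed zinc finger gene, had a mean of 1638 (1615 to 1660) at 1:63273265-63314576, or 129 per kilobase. Impact, a paternally expressed regulator of the kinase GCN2 on chromosome 18, had a mean of 669 (655 to 684), or 131 per kilobase, within counting error of Zdbf2. Dhcr7, which encodes the last enzyme of cholesterol synthesis and is maternally expressed in placenta, had a mean of 766 (751 to 782) at 7:143823145-143848410, or 132 per kilobase. Per kilobase of all exons, these 3 genes, each from a different chromosome, lay at percentiles from 81.01 to 81.29 among all genes. They were not close with other lengths. Zdbf2, Impact and Dhcr7 were at 130, 178 and 272 with the longest transcript, and at 135, 1056 and 1063 with the median transcript.

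Plagl1, a paternally expressed zinc finger transcription factor gene, and Inpp5f, a phosphoinositide phosphatase gene of which a brain transcript is imprinted, lay closer to the middle of all genes. Plagl1 had a mean of 246 (237 to 255) at 10:13060504-13131694, or 31.4 per kilobase. Inpp5f had a mean of 160 (153 to 167) at 7:128611328-128696425, or 19.2 per kilobase. Plagl1 was below its relative Plagl2 by 5.14-fold (4.94 to 5.35), and below Plag1 by a ratio of 1.01 (0.960 to 1.06) that lay within counting error. With the longest transcripts these ratios were 3.56 and 1.21. With the median transcripts both orders turned, and Plagl1 was 3.24-fold above Plagl2 and 4.77-fold above Plag1.

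Qpct, Rasgrf1 and Nap1l5 were low. Qpct, the glutaminyl cyclase gene, maternally expressed in placenta, had a mean of 24.8 (22.2 to 27.8) at 17:79051906-79090243, or 9.78 per kilobase. Rasgrf1, a Ras exchange factor gene paternally expressed in brain, had a mean of 4.98 (3.81 to 6.37) at 9:89909908-90026977, or 0.450 per kilobase. Nap1l5, an intronic retrocopy of the nucleosome assembly protein family with paternal expression, had a mean of 0.231 (0.0496 to 0.703) at 6:58905233-58907076. Its host Herc3 was at 20.6 per kilobase, above Nap1l5 by a ratio of 164 whose counting interval, on 3 reads, ran from 54.0 to 766. This ratio was 317 with the longest and 1857 with the median transcripts.

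Retrocopies inside hosts therefore differed among themselves. Per kilobase of all exons or of the longest transcript, Zrsr1 and Mcts2 were above their hosts and Nap1l5 was below, but with median transcript lengths all 3 were below. Zrsr1 was also above its parent gene Zrsr2 by 2.80-fold per kilobase (2.65 to 2.96), and Mcts2 above its parent Mcts1 by 2.31-fold (2.18 to 2.45). With the longest transcript as length these ratios were 1.504 and 1.151, and with the median transcript both orders turned, to 2.90-fold and 1.36-fold higher parents. Reads of 50 bases can tell these copies from their parents, because no 50-base stretch of Mcts2 occurs in Mcts1 transcripts and none of Zrsr1 occurs in a transcript from elsewhere in the genome. The families of other genes showed no common order, since Copg2 was 2.37-fold below Copg1, and Grb10 was 5.60-fold below Grb7 but 16.5-fold above Grb14. Copg2 was 3.77-fold and 6.51-fold below Copg1 with the longest and median transcripts, and Grb10 was 1.19-fold below Grb7 with the latter. Peg12 was 1.198-fold above Frat2 (1.06 to 1.35).

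All 30 genes shared under 10% of their 50-base stretches with transcripts from elsewhere in the genome, and 19 shared none. The highest share was that of Snrpn, 4.84%. Overlap at the gene's own place was larger, up to 26.0% of the stretches for Snrpn. Exon bases were shared with another annotated gene by 12 genes, 11 of them with a gene on the other strand. Only 7 share them with a gene of the expression table. The share of all genes with such overlap was not analysed here. Snrpn shares 27.3% of its exon bases with Gm38393 on the same strand, a gene with a mean of 534. The authors made their gene counts with the alignment program STAR. Whether reads in shared bases were counted or dropped is not given in the sources used here.

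Grouped by allele, the paternally and maternally expressed genes covered overlapping ranges. The 17 paternally expressed genes with a value had a median of 31.4 per kilobase and ran from 0.125 for Nap1l5 to 645 for Mest, with 11 above the median of all genes. The 10 maternally expressed genes had a median of 64.4 and ran from 0.00648 for Kcnk9 to 132 for Dhcr7, with 7 above it. Per kilobase of all exons, the order of these medians turned by a narrow margin when genes imprinted mainly in brain or placenta were left out. The medians were then 63.3 for 15 paternal and 62.1 for 4 maternal genes. The counting interval of Zrsr1, the middle paternal gene, was 61.3 to 65.5 and covered both. The maternal genes were Zim1 (1.38), H13 (51.9), Grb10 (72.2) and Igf2r (80.6). Without H13 the middle maternal gene would be Grb10, and the order would not turn. By mean without length the order did not turn, with 217 for the same paternal and 559 for the same maternal genes. The other transcript lengths were not analysed for this subset. The 3 genes placed in neither group because their allele depends on the transcript were Gnas, Inpp5f and Ddc, with a median of 19.2 per kilobase. H13 also depends on the transcript but was counted as maternal, for its full-length transcripts.

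**Figure D3:**
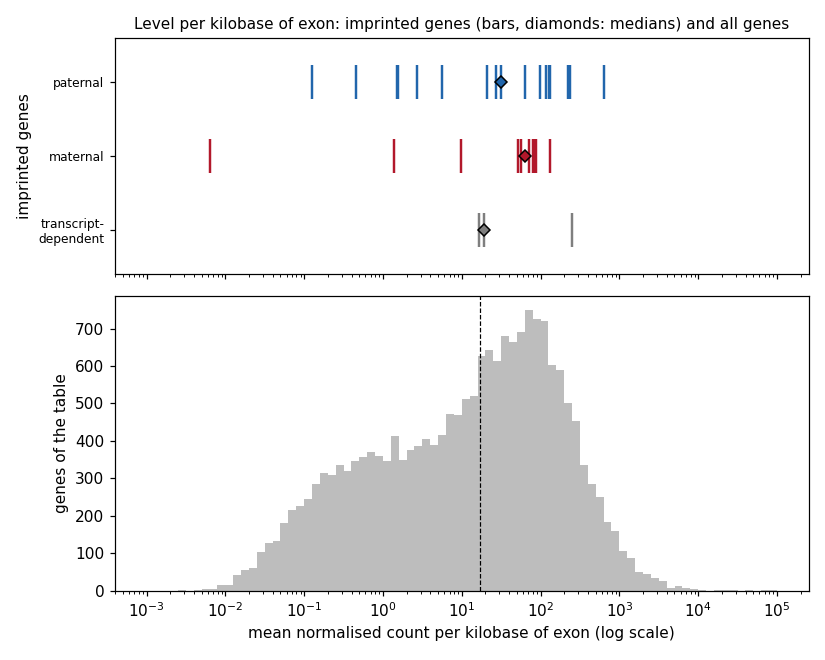
Levels per kilobase of exon on a log axis, with each imprinted gene as a bar and each group's median as a diamond in the upper panel, and the number of genes of the table in each bin in the lower panel. The paternal (median 31.4) and maternal (median 64.4) genes overlap over much of their range, and most lie right of the dashed median of all genes, 17.1.

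Genes imprinted mainly in brain ran from Kcnk9, at 1 read, to Ube3a, at a mean of 1166, in these stem cells. Of the 7 listed, 6 had a value, and Ube3a, Copg2, Trappc9 and Usp29 had means of at least 10, while Rasgrf1 and Kcnk9 did not. Across all genes of the table this minimum was reached by 66.3%, a share near that of these 6 genes. The median of the 6 was 29.0 per kilobase, beside 72.2 for the 17 genes imprinted broadly, 15 of which had means of at least 10. The 2 placental genes with a value were Dhcr7 and Qpct, at 132 and 9.78 per kilobase. Markers of embryonic stem cells were high, with all 8 at means from 977 to 23079. Of 8 neuronal markers, 7 had a value, from 8.13 to 1736, and 6 of these had means of at least 10. Of 8 trophoblast markers, 7 had a value, from 1.13 to 1694, with 5 at means of at least 10. Cdx2 and Elf5 were at 1.49 and 1.13, while Tfap2c was at 1694, Eomes at 199, Krt7 at 18.8, Gata3 at 13.9 and Hand1 at 13.6. Of 8 fibroblast markers, 5 had a value, with Col1a2 and Col3a1 at 0.689 and 0.0930, Pdgfrb at 83.7, Col1a1 at 115 and Thy1 at 194. The part of other cell types in the levels of the imprinted genes was not tested.

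Promoter sequences were compared over RefSeq windows of 300 bases, from 250 before to 50 after each start. Of the 32 listed genes, 27 had at least 1 window, among them Slc22a3. TGCCGC or its reverse complement, searched on both strands, occurred in 12 of these 40 windows, beside 11.6% of all 32851 windows. By gene, it occurred in 11 of 27 (40.7%), beside 19.3% of the 13948 genes of the table with a window. The genes were Copg2, Dhcr7, Grb10, Mcts2, Mest, Nap1l5, Nnat, Plagl1, Snrpn, Zdbf2 and Zim1, with the most matches, 3, in the upstream window of Zdbf2 printed above. The other window of Zdbf2, at the start of its counted span, had no match. Windows of a gene can overlap: the Mest windows starting at 30737800 and 30737803 count separately with 2 matches each. The number of windows per gene was not matched between the listed genes and all genes. A match describes these letters only, and imprinting control regions often lie outside such windows.

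Genes with the motif covered a wide range of levels. They ran from Nap1l5 at 0.125 to Mest at 645 per kilobase, with a median of 117 over 11 genes, beside 21.0 over the 15 genes with a window and no match. The same medians over all genes, and with other lengths, were not analysed, so this difference cannot be called particular to imprinted genes. The motif occurred in 13.1% of all 27025 genes with a window, beside 19.3% of those in the expression table. The ratio of observed to expected CpG sites, which is high in CpG islands, had a median of 0.701 in the highest window of each listed gene and 0.718 over the genes of the table. It was under 0.6 in 9 of the 27 genes (33.3%), beside 37.0% of the genes of the table. The highest ratios were those of Mcts2 (0.991) and Grb10 (0.973), and the lowest was that of Airn (0.192).

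**Figure D4:**
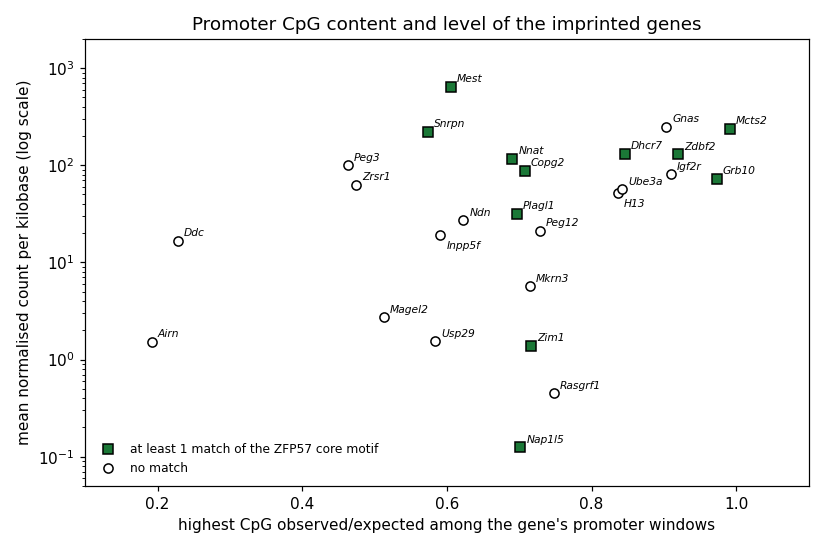
Level per kilobase of exon (log axis) against the highest ratio of observed to expected CpG sites among a gene's promoter windows, for the 26 imprinted genes with both values, with green squares where the ZFP57 core motif occurred and white circles where it did not. Genes with the motif lie between Nap1l5 at 0.125 and Mest at 645, and genes of low CpG ratio include both Airn at 1.52 and Peg3 at 99.6.

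Other imprinted genes served as a comparison list. The list held 28 names, from clusters such as those of Igf2 and Dlk1. Among them were Jade1 together with Phf17, an older name of the same gene, and Xist, the X-inactivation RNA. Of these names 25 had a value and 23 had means of at least 10, beside 66.3% of all genes of the table. Their median was 49.0 per kilobase and their median percentile 65.4, beside 54.2 and 66.9 for the genes described above. Of 8 genes that keep imprints, such as those encoding ZFP57 and its partner TRIM28, all had a value and 7 had means of at least 10, from 7.28 to 25297 with a median of 2336.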

How the data were processed

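RNA of the 8 labelled libraries was depleted of ribosomal RNA, sequenced as single-end reads of 50 bases and aligned to GRCm38.p6 with STAR 2.5.3a by the authors. STAR also gave the gene counts. The deposited signal is the authors' mean normalised count over the libraries of their DESeq2 1.20.0 fit. The smallest means put these at 12, which is 4 more than the labels describe. A further 5 columns hold the authors' own genotype comparison (fold change, its error, statistic, p-value and adjusted p-value) and were not used, so the genotypes were not compared. Lengths came from GENCODE vM21, for 19351 of 19429 genes. The table's coordinates equalled that annotation for 23 of the 30 genes. They differed for Zrsr1, Kcnk9, Trappc9, Airn, Qpct, Impact and Mcts2. Reads per gene were taken as the mean times the sum of size factors (12.5), which sets the 95% intervals. Members and gene lists were chosen with earlier results of these data known. All members were named, and other genes only as hosts, neighbours, partners, relatives or markers. Alleles and roles are textbook knowledge. Python 3.11.15, pandas 2.3.3, numpy 2.4.6 and scipy 1.17.1 were used.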

Additional observations from a re-analysis of the deposited data

How the results depend on the processing

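No paired analysis was possible because the only level used is a mean over all libraries, and for the same reason no replicate could be left out. The number of genes with a mean of at least 10 was 26, and 28 and 18 at minimums of 1 and 100, for which the share of all genes was not analysed. The median percentile of the imprinted genes was 66.7 by mean, 62.6 among genes with means of at least 1, 63.2 among protein-coding genes and 66.9 per kilobase, the last chosen after the data were seen. The log2 ratio of the paternal to the maternal median was -1.03 per kilobase, -1.38 without length -1.11 per kilobase of the longest transcript and -2.07 per kilobase of the median transcript, the last 2 also chosen after the data were seen. It reversed to 0.029, near equality, per kilobase of all exons without the genes imprinted mainly in brain or placenta, where 4 maternal genes remained. By mean without length the paternal and maternal medians of that subset kept their order, at 217 and 559. Joining genes within 0.5 Mb in place of 1 Mb gave 20 groups, with Ube3a apart from Snrpn. The count of 12 libraries was the same with steps of at least 20 genes. Transcript lengths cannot exceed the summed exons, so levels rose or stayed by construction, by up to 2.83-fold for Gnas with the longest transcript and 26.8-fold for Ube3a with the median. Ranks shifted by up to 4 and 12 places. No pair of genes changed its order with the longest transcript, and 7 of 20 did with the median: Mcts2 with H13 and Mcts1, Zrsr1 with Commd1 and Zrsr2, Plagl1 with Plagl2 and Plag1, and Snrpn with Ube3a. Depth limits Kcnk9 and Nap1l5, which rest on 1 and 3 reads.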
